A study of Mus musculus with 12 samples.

Results

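The antioxidant and glutathione synthesis genes described here are Gclc, Gclm, Gsr, Gpx1, Gpx2, Gpx4, Cat, Sod1, Nqo1 and Hmox1. They were chosen by name, for their known roles, from the 39086 genes of the count table. All 10 passed the filter on low counts, which left 17087 genes for testing. The libraries came from sorted jejunal villus cells of male Neurog3eYFP/+ mice on a C57BL/6N background, so 1 eYFP reporter allele of Neurog3 was present in every group. Neurog3 is the gene of the factor that commits gut progenitors to the endocrine fate, and eYFP marks its descendants, the hormone-secreting enteroendocrine cells (EEC). All mice were 12 weeks old. Those on a normal diet (ND, Safe D04) stayed on it, and those on a high fat diet (HFD, D12492 from Research Diets) had been moved to it at 8 weeks of age and had eaten it for 4 weeks. Villi were enriched with EDTA, dissociated with dispase and sorted into eYFP-plus cells (EEC) and eYFP-minus cells (non-EEC), with 3 libraries in each of the 4 groups. The labels name no sort marker besides eYFP, so the non-EEC libraries hold whatever other cells the villus preparation carried. There were 3 mice per diet, and the labels give no link between the sorted populations of one animal, so each p-value rests on the spread between libraries, part of which may be technical, and ignores any pairing by mouse.

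Cells make glutathione, the main small thiol of the cytosol, in a pair of steps, and the first of these sets the rate. Glutathione peroxidases then spend it to reduce peroxides, and glutathione reductase restores it with NADPH. Superoxide dismutase turns superoxide into hydrogen peroxide, and catalase breaks hydrogen peroxide down in peroxisomes. Several of these genes are known targets of NRF2 (gene Nfe2l2), a transcription factor that binds antioxidant response elements in promoters. The villus epithelium meets oxidants from food, bacteria and its own fat oxidation, and Gpx2 is known as the peroxidase typical of the gut epithelium.

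Total counts per library ran from 9543183 to 29054281. Neurog3 gave 24.4 to 298 CPM (counts scaled to library size with TMM factors) in the EEC libraries and 0.0778 to 1.27 CPM in the non-EEC libraries. The 12 EEC markers summed to 18900 CPM or more in each EEC library and to 186 to 5370 CPM in the non-EEC libraries. Other cell types also differed between groups. The 12 T cell markers summed to 10400 to 28100 CPM in ND non-EEC, 87.1 to 864 in HFD non-EEC, 565 to 3950 in ND EEC and 43.7 to 177 in HFD EEC. All 12 were detected in each library, except for Cd2 at 0 in HFD EEC replicate 1 and in replicates 1 and 2 of HFD non-EEC. The 12 enterocyte markers, all detected in every library, summed to 3990 to 22600 CPM in ND non-EEC, 44500 to 105000 in HFD non-EEC, 13200 to 20700 in EEC under ND and 11600 to 27300 in EEC under HFD. ND non-EEC replicate 1 stood apart from the other ND non-EEC libraries. Its enterocyte sum was 22600 CPM against 3990 and 4200, its goblet cell sum (7 markers) 37200 against 3130 and 935, and its EEC marker sum 5370 against 533 and 186. Its T cell sum was the lowest of its group, at 10400 CPM against 15800 and 28100. In enterocyte and T cell sums it was thus the ND non-EEC library nearest to HFD non-EEC. Leaving it out widens the gap in these sums between the diets, and the part of this in the results was not tested. Because this library stood apart, the members' fitted fold changes between populations or diets that rest on ND non-EEC are also given without it. So are the counts of the main gene lists. For the difference of the diet effects, only the adjusted p of the members then called is given. Without it 17893 genes passed the filter on low counts. In bulk libraries, fewer cells of a type and less RNA per cell cannot be told apart.

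In edgeR's fit of all 12 libraries, Gsr, Gpx2, Nqo1 and Hmox1 were called in no comparison between the populations or the diets. The other 6 of the 10 members were called in at least 1. Over both diets, Gclc and Gclm were higher in EEC, and Gpx1, Gpx4 and Cat were lower. These 5 of 10 members stood beside 21.6% of all 17087 genes called in that comparison (13.8% higher and 7.8% lower). Under ND, 2 of 10 members were called (Gclc and Gclm, both higher in EEC), beside 12.8% of all genes and 7.91% called higher. Under HFD, 2 of 10 were called (Gpx4 and Cat, both lower in EEC), beside 14% of all genes and 3.77% called lower. HFD against ND called 4 of 10 members in non-EEC, all higher under HFD (Gclm, Gpx4, Cat and Sod1), beside 14.9% of all genes in either direction and 5.76% called higher. In EEC, HFD against ND called 0 of 10 members, beside 0% of all genes. Leaving out ND non-EEC replicate 1, the members called were 3 over both diets (beside 21.4% of all genes tested), 2 under ND (17%), 2 under HFD (16.6%) and 6 between the diets in non-EEC (23.5%). The libraries of the populations did not overlap for 3 of 10 members under ND (Gclc, Gclm and Gpx1), beside 32.5% of all genes, and for 4 of 10 under HFD (Gpx2, Gpx4, Cat and Sod1), beside 35.8%. The calls came from edgeR's quasi-likelihood test with p-values adjusted by Benjamini-Hochberg over all 17087 genes at a threshold of 0.05. Comparisons that share a group share its libraries, so they are not independent of each other.

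**Figure D1:**
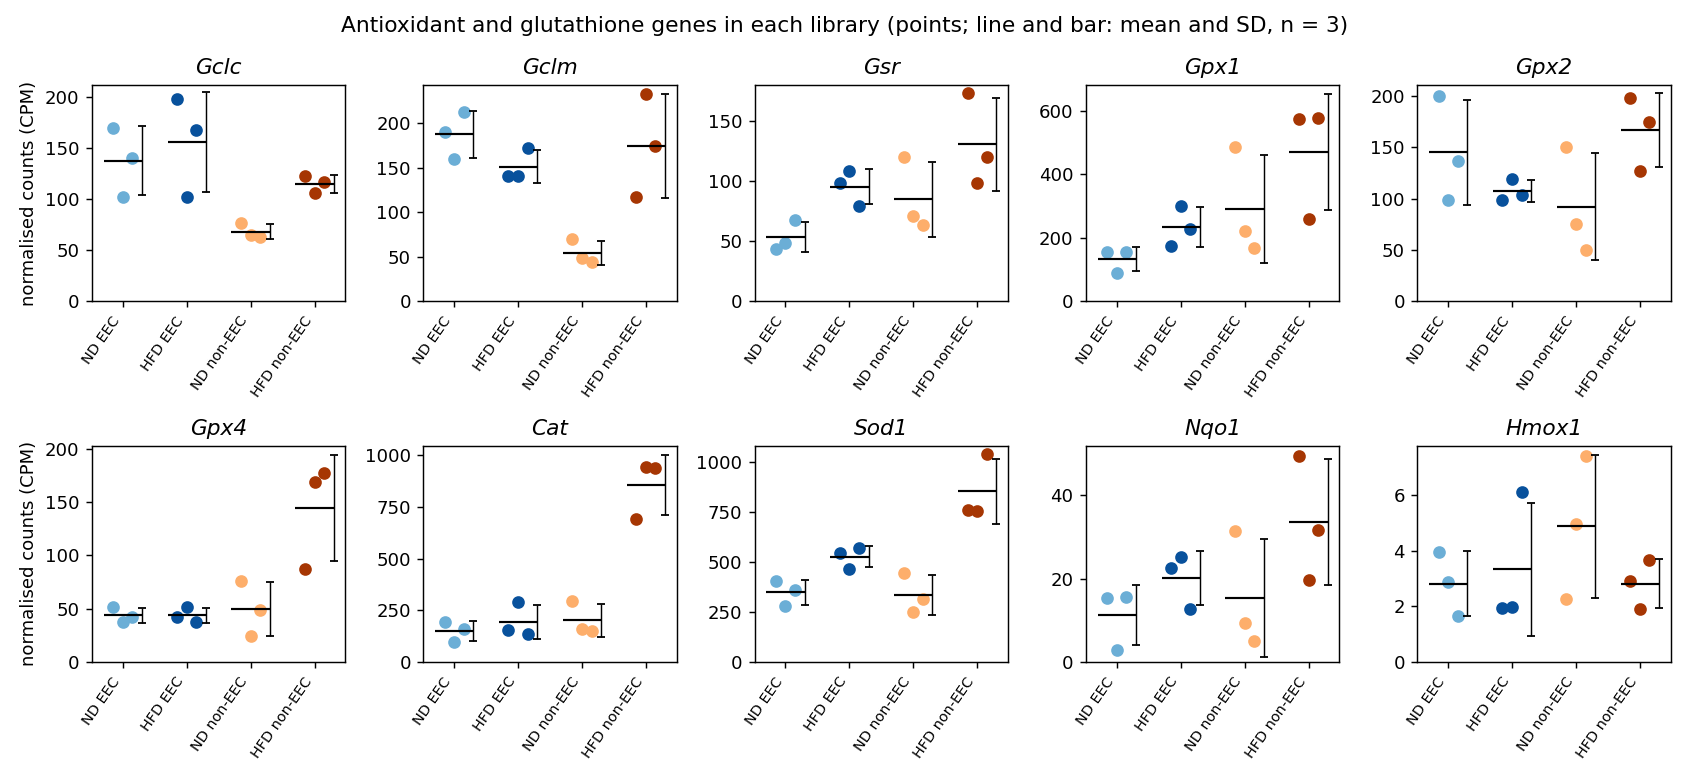
CPM (vertical axes, linear from 0) of the 10 members in the 12 libraries, by group on the horizontal axes. Points are libraries, horizontal lines are group means and bars are 1 SD (n = 3). Cat, Gpx4 and Sod1 were highest in the 3 HFD non-EEC libraries, and Gclc and Gclm were lowest in the 3 ND non-EEC libraries.

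**Figure D2:**
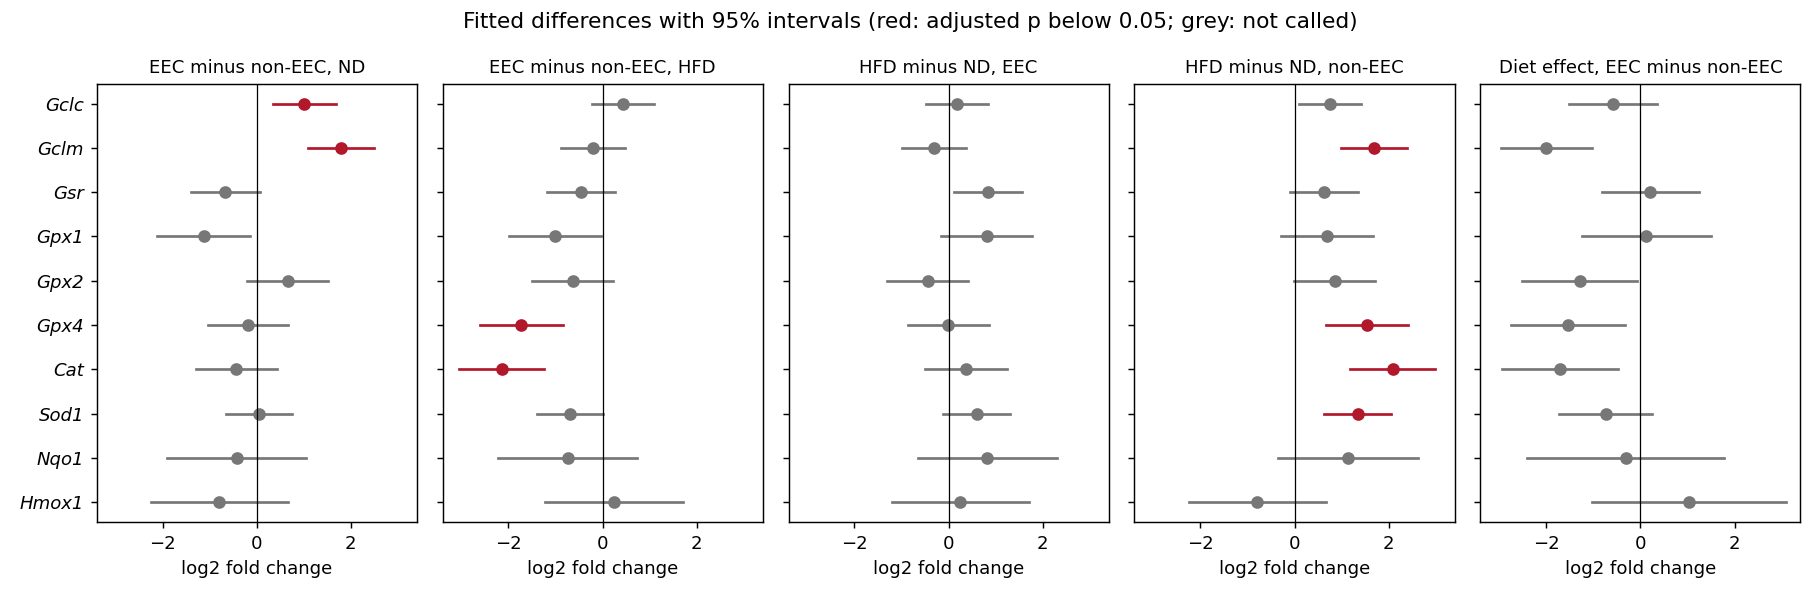
Fitted log2 fold changes (points) with 95% intervals (lines) of the 10 members in 5 comparisons. Red marks an adjusted p below 0.05. Gclc and Gclm were called between populations under ND, Gpx4 and Cat under HFD, and 4 members between the diets in non-EEC, while none was called between the diets in EEC or for the difference of the diet effects.

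Levels can be compared between genes only per length, so RPKM, which divide CPM by the length of the principal transcript in kilobases, were used for this. Sod1 had the highest RPKM of the 10 in all 4 groups and Hmox1 the lowest. In ND EEC, Sod1 reached 544 ± 97.6 RPKM (SD, n = 3), followed by Gpx2 at 136 ± 47.8 and Gpx1 at 125 ± 34.4. Gpx2 and Gpx1 overlapped between libraries and were not separable in order. Cat (57.3 ± 18.6), Gpx4 (45.8 ± 7.46) and Gclc (40.25 ± 9.9) also overlapped with the next gene in the order, down to Gclm (33.5 ± 4.66). Gsr (19.9 ± 4.65) and Nqo1 (7.32 ± 4.65) each lay below the gene before them without overlap, and Hmox1 had 1.8 ± 0.733 RPKM. In HFD non-EEC, Cat at 327 ± 55.3 RPKM came after Sod1 (1330 ± 255) and Gpx1 (440 ± 170) and overlapped with Gpx1. In ND non-EEC, Gclm had 9.68 ± 2.43 RPKM, and of the 10 members Hmox1 alone had a lower mean. Nqo1 (9.88 ± 9.09) overlapped with Gclm there, and the 2 were not separable in order. The order depended on the length used. With the length of all annotated exons instead of the principal transcript, Gpx1 rather than Sod1 ranked first in all 4 groups, level with Cat in HFD non-EEC at 327 RPKM.

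Gclc (chr9:77754535-77794485) encodes the catalytic subunit of glutamate-cysteine ligase, the enzyme of the first step. In ND EEC it gave 170, 102.5 and 141 CPM in replicates 1, 2 and 3, and in ND non-EEC 77.0, 64.5 and 63.2. The ND EEC libraries all lay above the ND non-EEC libraries. Under HFD it gave 198, 102 and 167 CPM in EEC and 123, 106 and 117 in non-EEC, and these overlapped. Gclc was 2.02-fold higher in EEC under ND (log2 fold change 1.01 ± 0.31, SE; adjusted p = 0.0478) and 1.65-fold higher over both diets (0.72 ± 0.22; adjusted p = 0.0302). Under HFD the log2 fold change was 0.44 ± 0.31 (adjusted p = 0.398). Between the diets, Gclc gave 0.18 ± 0.31 in EEC (adjusted p = 0.932). In non-EEC it gave 0.76 ± 0.31 (adjusted p = 0.115), with the 3 HFD libraries all above the 3 ND libraries, and 0.76 without ND non-EEC replicate 1 (adjusted p = 0.131). The values under ND and over both diets were then 1.06 (adjusted p = 0.0533) and 0.75 (adjusted p = 0.0346). Both calls were close to the threshold, and both were lost without the filter on low counts (adjusted p = 0.0509 over both diets). The call under ND was kept in the runs without replicate 2 of either EEC group. Without any 1 of the other 10 libraries its adjusted p was 0.0533 to 0.138. The call over both diets was kept in the runs without replicate 2 of either EEC group or replicate 1 of ND non-EEC, and without any 1 of the other 9 libraries its adjusted p was 0.0537 to 0.0907.

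Gclm (chr3:122245557-122270732) encodes the modifier subunit, which makes the ligase more efficient. In ND EEC it gave 189.5, 160.2 and 212 CPM, and in ND non-EEC 69.6, 48.6 and 44.1. All 3 ND EEC libraries lay above all 3 ND non-EEC libraries. Under HFD it gave 140.2, 141 and 172 CPM in EEC and 117, 233 and 174 in non-EEC, so the populations overlapped. Gclm was 3.46-fold higher in EEC under ND (log2 fold change 1.79 ± 0.32; adjusted p = 0.00450), the largest difference between populations of any member under that diet. Under HFD the log2 fold change was -0.21 ± 0.31 (adjusted p = 0.740). Over both diets it was 0.79 ± 0.22 (adjusted p = 0.0223). Gclm was 3.23-fold higher under HFD in non-EEC (1.69 ± 0.32; adjusted p = 0.00573), where the 3 HFD libraries lay above the 3 ND libraries. In EEC the diet difference was -0.31 ± 0.31 (95% interval -0.99 to 0.37, adjusted p = 0.857). Both the ND call and the diet call in non-EEC held in all 12 runs without 1 library, though some of these left out a library of neither group compared. They were 1.97 and 1.82 on the log2 scale without ND non-EEC replicate 1 (adjusted p = 0.00276 and 0.00295), where the value over both diets was 0.88 (adjusted p = 0.0128). The call over both diets had an adjusted p of 0.0507 to 0.0618 without replicate 2 of ND non-EEC, replicate 3 of HFD EEC, or replicate 1 or 3 of HFD non-EEC. The exons of Gclm share 296 bases with Gm17494 on the opposite strand, which had 1787 counts over the 12 libraries. No source used here gives the strand setting of the counting, and without it reads of the overlap cannot be told apart.

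Gsr (chr8:33652523-33698163) encodes glutathione reductase, which returns oxidised glutathione to its reduced form. In ND EEC it gave 43.9, 48.6 and 67.4 CPM, and in HFD EEC 98.1, 108 and 79.3. The 3 HFD EEC libraries all lay above the 3 ND EEC libraries. This was 1 of 3 members, with Gpx1 and Sod1, whose EEC libraries did not overlap between the diets, beside 15% of all genes. The log2 fold change of Gsr was 0.84 ± 0.34 (95% interval 0.11 to 1.57), with an unadjusted p of 0.0275 and an adjusted p of 0.447 by edgeR's quasi-likelihood test. In non-EEC it gave 120.2, 70.5 and 63.1 CPM under ND and 173, 98.2 and 119.7 under HFD. These overlapped, with a log2 fold change of 0.62 ± 0.34 (adjusted p = 0.231). Gsr was not called between the populations, at -0.67 ± 0.34 under ND (adjusted p = 0.216), -0.45 ± 0.34 under HFD (adjusted p = 0.426) and -0.56 ± 0.24 over both diets (adjusted p = 0.115). With ND non-EEC replicate 1 left out it gave -0.37 under ND (adjusted p = 0.472), -0.41 over both diets (adjusted p = 0.208) and 0.88 between the diets in non-EEC (adjusted p = 0.0775).

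Gpx1, Gpx2 and Gpx4 encode glutathione peroxidases that are selenoproteins. A TGA codon, elsewhere a stop, is read in them as selenocysteine, the residue of the active site. The 33 bases of coding sequence around this codon are shown to let the 3 transcripts be compared at the point that defines them, with the codon in capitals (mm10, GENCODE vM21). They lie at chr9:108339436-108339468 on the plus strand, chr12:76795241-76795273 on the minus strand and chr10:80054722-80054754 on the plus strand, at codons 47, 40 and 73.
Gpx1: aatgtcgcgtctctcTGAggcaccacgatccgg
Gpx2: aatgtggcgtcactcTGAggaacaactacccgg
Gpx4: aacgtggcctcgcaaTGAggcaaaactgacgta
Gpx1 and Gpx2 shared 27 of these 33 bases, Gpx2 and Gpx4 shared 21, and Gpx1 and Gpx4 shared 19.

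Gpx1 (chr9:108338903-108340343) encodes the cytosolic peroxidase found in most cells. In ND EEC it gave 155, 91.0 and 155 CPM, and in ND non-EEC 486, 222 and 168. All ND EEC libraries lay below all ND non-EEC libraries. In HFD EEC it gave 175, 301 and 227 CPM, and in HFD non-EEC 576, 261 and 578, with an overlap between the populations. Gpx1 was 2.1-fold lower in EEC over both diets (log2 fold change -1.07 ± 0.32; adjusted p = 0.0301). Within a diet edgeR did not call it, at -1.13 ± 0.46 under ND (adjusted p = 0.120) and -1.01 ± 0.45 under HFD (adjusted p = 0.162), while limma-voom called it under both diets (adjusted p = 0.0465 under ND). In EEC the HFD libraries lay above the ND libraries without overlap, but the log2 fold change of 0.81 ± 0.45 did not pass (adjusted p = 0.634). In non-EEC it was 0.69 ± 0.45 (adjusted p = 0.327). The call over both diets had an adjusted p of 0.0523 without ND non-EEC replicate 1, where the log2 fold change was -0.81. In that run it gave -0.59 under ND (adjusted p = 0.348) and 1.2 between the diets in non-EEC (adjusted p = 0.0591). Without replicate 2 of ND EEC, or replicate 1 or 3 of either HFD group, it also missed, with an adjusted p of up to 0.0815.

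Gpx2 (chr12:76792333-76795554) gave 200, 99.2 and 137 CPM in ND EEC and 151, 75.5 and 50.3 in ND non-EEC. These overlapped. In HFD EEC it gave 99.0, 119 and 103 CPM and in HFD non-EEC 198, 127.5 and 174.5, and here all EEC libraries lay below all non-EEC libraries, as they did for 35.8% of all genes in either direction. With all 12 libraries edgeR called Gpx2 in none of the comparisons. With the same libraries limma-voom called it between the diets in non-EEC (log2 fold change 1.14, adjusted p = 0.00205). By edgeR its log2 fold change between populations was 0.66 ± 0.40 under ND (adjusted p = 0.308) and -0.64 ± 0.40 under HFD (adjusted p = 0.332). Between the diets it was -0.44 ± 0.40 in EEC (adjusted p = 0.834) and 0.86 ± 0.40 in non-EEC (adjusted p = 0.166). In edgeR's fit, 2 of these results depended on ND non-EEC replicate 1. Without it, Gpx2 was higher in EEC under ND by 1.16 (adjusted p = 0.0456) and higher under HFD in non-EEC by 1.32 (adjusted p = 0.0210). Over both diets the population difference was 0.01 ± 0.28 in the fit of all libraries (adjusted p = 0.988 by edgeR). It was 0.26 without that library (adjusted p = 0.488). The pseudogene Gpx2-ps1 matches 98.1% of 572 aligned bases of the transcript and had 31 counts over the 12 libraries, and how reads that fit both were counted is not known.

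Gpx4 (chr10:80047166-80056439) encodes the peroxidase that reduces lipid peroxides in membranes. It gave 51.8, 37.8 and 42.3 CPM in EEC under ND, 42.3, 51.4 and 37.5 in EEC under HFD and 75.65, 24.8 and 49.2 in ND non-EEC. In HFD non-EEC it gave 87.4, 169 and 177, above every library of the other 3 groups. Gpx4 was 3.30-fold lower in EEC than in non-EEC under HFD (log2 fold change -1.72 ± 0.41; adjusted p = 0.0133) and 1.94-fold lower over both diets (-0.95 ± 0.28; adjusted p = 0.0280). Under ND it gave -0.18 ± 0.40 (adjusted p = 0.809). Gpx4 was 2.90-fold higher under HFD in non-EEC (1.54 ± 0.40; adjusted p = 0.0246), and the diet difference in EEC was -0.01 ± 0.40 (95% interval -0.86 to 0.85, adjusted p = 1.0). Without ND non-EEC replicate 1 the diet call in non-EEC was 1.88 (adjusted p = 0.00685) the value over both diets -0.77 (adjusted p = 0.0537) and the value under ND 0.20 (adjusted p = 0.769). The diet call was lost without replicate 2 or 3 of either non-EEC group (adjusted p of 0.0698 to 0.0874). The call under HFD was lost without replicate 1 or 3 of HFD EEC or replicate 3 of HFD non-EEC (0.0593 to 0.0682). The call over both diets was also lost without replicate 2 or 3 of ND EEC, 1 or 3 of HFD EEC, or 2 or 3 of HFD non-EEC, with adjusted p up to 0.0728. Near-identical copies limit the value of this gene. Gpx4-ps2 matches it at 99.7% over 762 bases and AC122253.3 at 95.1% over 535 bases, neither has a row of its own in the count table, and how reads that fit both were counted is not given in the sources used here.

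Sod1 (chr16:90220754-90226329) encodes the copper and zinc superoxide dismutase of the cytosol. It gave 404, 281 and 361.5 CPM in ND EEC and 446, 250.8 and 315 in ND non-EEC, with an overlap. In HFD EEC it gave 543, 467 and 572 CPM, above all ND EEC libraries. In HFD non-EEC it gave 761, 756 and 1041, above every library of the other 3 groups. Sod1 was 2.53-fold higher under HFD in non-EEC (log2 fold change 1.34 ± 0.33; adjusted p = 0.0188). In EEC the diet difference was 0.60 ± 0.33 (95% interval -0.11 to 1.30, adjusted p = 0.630). Between the populations it was not called, at 0.05 ± 0.33 under ND (adjusted p = 0.944), -0.69 ± 0.33 under HFD (adjusted p = 0.184) and -0.32 ± 0.23 over both diets (adjusted p = 0.354). Without ND non-EEC replicate 1 the diet call in non-EEC was 1.51 (adjusted p = 0.00661), and the population difference was 0.26 under ND (adjusted p = 0.628) and -0.22 over both diets (adjusted p = 0.505). The diet call was lost without replicate 2 or 3 of ND non-EEC or replicate 3 of HFD non-EEC, with an adjusted p of 0.0617 to 0.0867. The processed copy Gm8566 matches Sod1 at 97.8% over 465 bases and had 59 counts over the 12 libraries.

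Cat (chr2:103453849-103485160) encodes catalase. It gave 193, 97.2 and 159 CPM in EEC under ND, 155, 289 and 136 in EEC under HFD and 294, 161 and 151 in ND non-EEC, and these 3 groups overlapped. In HFD non-EEC it gave 688.5, 939.5 and 937.5 CPM (mean 855 ± 144 SD, n = 3), more than in any library of the other groups. Cat was 4.42-fold lower in EEC than in non-EEC under HFD (log2 fold change -2.15 ± 0.42; adjusted p = 0.00454), and 2.44-fold lower over both diets (-1.29 ± 0.29; adjusted p = 0.00633). Under ND the log2 fold change was -0.43 ± 0.40 (adjusted p = 0.527). Cat was 4.23-fold higher under HFD in non-EEC (2.08 ± 0.42; adjusted p = 0.00738), the largest diet difference among the 10 members. In EEC the diet difference was 0.37 ± 0.40 (95% interval -0.50 to 1.24, adjusted p = 0.871). These 3 calls held in all 12 runs without 1 library, though for the calls under HFD and in non-EEC some runs left out a library of neither group compared. They were -2.15, -1.13 and 2.37 without ND non-EEC replicate 1, and the value under ND was -0.10 (adjusted p = 0.887). Within HFD EEC, replicate 2 had the highest Cat (289 CPM) and also the highest enterocyte marker sum (27300 CPM against 11600 and 12900). Replicate 1 of ND non-EEC likewise had the highest of both in its group. Replicates 2 and 3 of that group ranked in opposite order (Cat 161 and 151 CPM, enterocyte sums 3990 and 4200 CPM). In HFD non-EEC, replicate 2 had a higher enterocyte sum than replicate 3 (105000 against 88100 CPM). Their Cat was nearly level (939.5 and 937.5 CPM). In ND EEC, Cat was highest in replicate 1 (193 CPM), but the enterocyte sum in replicate 3 (20700 CPM against 19000 in replicate 1). A link between Cat and this sum was not tested.

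Nqo1 (chr8:107388225-107403206) encodes a quinone reductase and Hmox1 (chr8:75093621-75100589) the inducible heme oxygenase. Nqo1 gave 15.3, 3.03 and 15.7 CPM in EEC under ND, 22.5, 25.3 and 12.8 in EEC under HFD, 31.4, 9.48 and 5.10 in ND non-EEC and 49.5, 19.7 and 31.8 in HFD non-EEC. Its groups overlapped in all of the pairs compared, and with all 12 libraries edgeR called it in none of the comparisons. With the same libraries limma-voom called it between the diets in non-EEC (log2 fold change 1.74, adjusted p = 0.00594). By edgeR the log2 fold change between the diets was 0.83 ± 0.69 in EEC (adjusted p = 0.808) and 1.14 ± 0.69 in non-EEC (adjusted p = 0.292). Without ND non-EEC replicate 1 the value in non-EEC was 2.12 (adjusted p = 0.0408). Between the populations it was -0.43 ± 0.69 under ND (adjusted p = 0.734) and -0.74 ± 0.69 under HFD (adjusted p = 0.543), and without ND non-EEC replicate 1 the value under ND turned to 0.60 (adjusted p = 0.569). Over both diets Nqo1 gave -0.583 ± 0.485 (adjusted p = 0.434 by edgeR), and -0.07 without that library (adjusted p = 0.931).

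Hmox1 had the lowest level of the 10 members, with 3.95, 2.86 and 1.65 CPM in EEC under ND, 1.92, 1.97 and 6.09 in EEC under HFD, 2.26, 4.95 and 7.39 in ND non-EEC and 2.89, 1.90 and 3.64 in HFD non-EEC. Its groups overlapped throughout, and none of its comparisons was called. The diet difference was 0.25 ± 0.68 in EEC (adjusted p = 0.956) and -0.79 ± 0.68 in non-EEC (adjusted p = 0.472). Between the populations it was -0.80 ± 0.68 under ND (adjusted p = 0.479) and 0.24 ± 0.68 under HFD (adjusted p = 0.871). With ND non-EEC replicate 1 left out it gave -1.18 under ND (adjusted p = 0.282) and -1.21 between the diets in non-EEC (adjusted p = 0.249). The 95% intervals of the 4 values in the fit of all libraries lay between -2.25 and 1.70. Over both diets Hmox1 gave -0.28 ± 0.48 between the populations (adjusted p = 0.725 by edgeR). Without ND non-EEC replicate 1 this was -0.48 (adjusted p = 0.537).

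The members called higher under HFD in non-EEC moved beside large shifts in other cell types' markers. From ND to HFD non-EEC, the enterocyte marker sum went from 3990 to 22600 CPM up to 44500 to 105000, and the T cell sum from 10400 to 28100 down to 87.1 to 864. The B and plasma cell sum (8 markers) went from 983 to 1340 CPM down to 8.37 to 150. The Paneth cell sum (6 markers) went from 129 to 1160 CPM up to 1200 to 5490, and the erythroid sum (6 markers) from 40.9 to 203 down to 3.17 to 24.4. Mitochondrial transcripts took 2.03% to 6.5% of the counts under ND and 6.6% to 11.56% under HFD. These sums and shares did not overlap between the diets, as Gclc, Gclm, Gpx4, Cat and Sod1 did not (5 of 10 members, beside 35.3% of all genes). The part of these shifts in the members' results was not tested. The same groups supply the non-EEC side of the comparisons between populations, where the T cell sum was 565 to 3950 CPM in EEC against 10400 to 28100 in non-EEC under ND, and the enterocyte sum 11600 to 27300 in EEC against 44500 to 105000 in non-EEC under HFD. Its part there was not tested either. Within ND non-EEC, replicate 1 had the highest CPM of 9 of the 10 members, Hmox1 being the exception. The share of all genes that were highest in this library was not counted. Its enterocyte, goblet cell, EEC, Paneth, tuft and myeloid cell sums were the highest of its group. Its T cell, B and plasma cell, erythroid, stromal and stem cell sums were not.

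**Figure D3:**
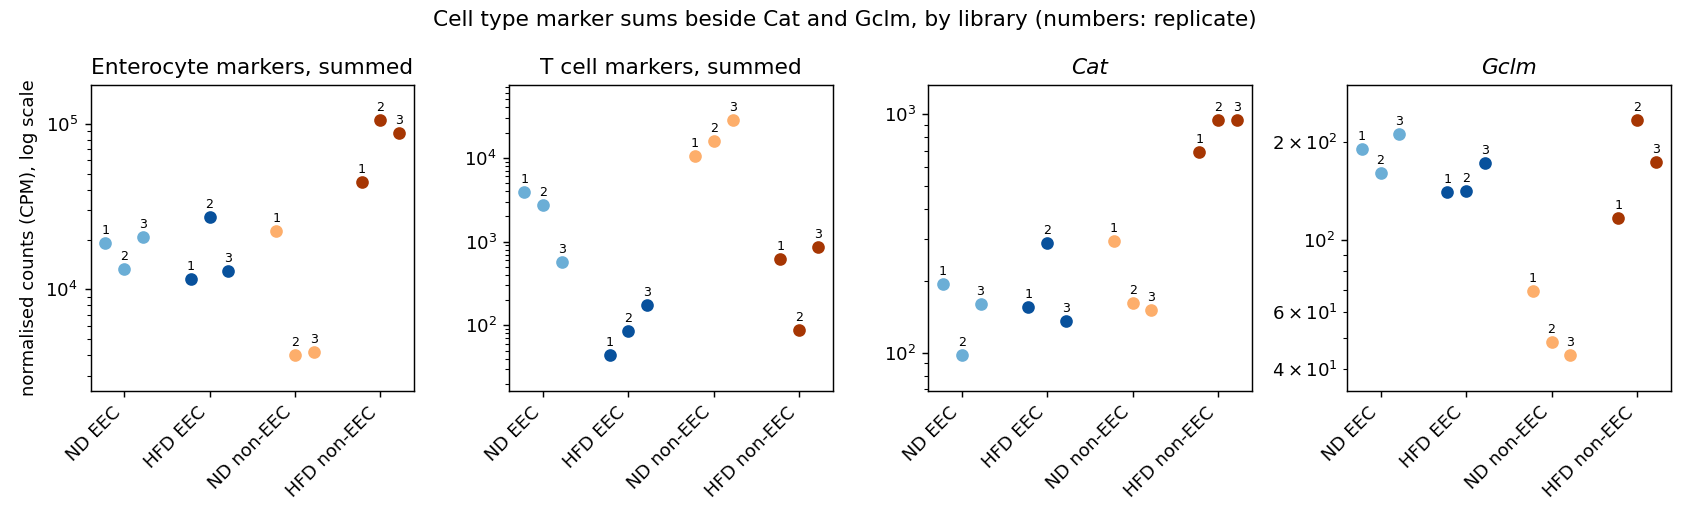
Summed CPM of 12 enterocyte and 12 T cell markers and CPM of Cat and Gclm (log axes) in each library, with replicate numbers at the points. The 3 HFD non-EEC libraries had the highest enterocyte sums (44500 to 105000 CPM) and Cat levels, and the 3 ND non-EEC libraries the highest T cell sums (10400 to 28100 CPM) and lowest Gclm.

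Whether the diet acted differently on the 2 populations was tested as the difference of the diet effects, EEC minus non-EEC. None of the 10 members was called, beside 0.497% of all genes, and 4 members had an unadjusted p below 0.05. Gclm had the smallest p, at -2.0 ± 0.45 on the log2 scale (unadjusted p = 6.22e-04, adjusted p = 0.0699). Cat followed at -1.71 ± 0.57 (adjusted p = 0.167), Gpx4 at -1.54 ± 0.56 (adjusted p = 0.201) and Gpx2 at -1.29 ± 0.56 (adjusted p = 0.275). A call in non-EEC and none in EEC is therefore not shown to be a difference between the populations by this fit. DESeq2 called 2 of these differences (Gclm and Cat) and limma-voom with quality weights called 3 (Gclm, Gpx4 and Cat). Without ND non-EEC replicate 1 edgeR called 4, with adjusted p of 0.0167 for Gclm, 0.0401 for Cat, 0.0417 for Gpx2 and 0.0477 for Gpx4, beside 1271 of 17893 genes (7.1%). The ND non-EEC libraries kept in that run had the group's highest T cell and lowest enterocyte sums. The part of this in these calls was not tested. In the fit of all 12 libraries, the adjusted p of the other 6 members was 0.450 or more.

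The promoters of Gclm, Sod1 and Cat are shown because these genes, with Gpx4, were higher together under HFD in non-EEC. RefSeq start sites on GRCm38.p6 gave promoter windows for 7 of the 10 members, with none for Gclc, Gsr and Hmox1. Each window of 250 bases before to 50 after the start site was searched on both strands for the core of the antioxidant response element (TGACNNNGC), the AP-1 site (TGANTCA) and a direct repeat known to bind nuclear receptors (AGGTCA and AGGTCA with any 1 base between them). The element core was in the windows of Gclm and Sod1, on the reverse strand, with its first base 134 and 56 bases before the start site. The 250 bases before each start site are given 5′ to 3′ on the gene's strand, with the match in capitals. They are chr3:122245307-122245556 (plus strand), chr16:90220512-90220761 (plus strand) and chr2:103485154-103485403 (minus strand).
Gclm: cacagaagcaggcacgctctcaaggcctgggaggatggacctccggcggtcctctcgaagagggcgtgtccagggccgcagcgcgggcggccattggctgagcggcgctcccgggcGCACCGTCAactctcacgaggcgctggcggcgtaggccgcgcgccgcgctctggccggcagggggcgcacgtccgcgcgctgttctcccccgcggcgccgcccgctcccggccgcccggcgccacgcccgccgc
Sod1: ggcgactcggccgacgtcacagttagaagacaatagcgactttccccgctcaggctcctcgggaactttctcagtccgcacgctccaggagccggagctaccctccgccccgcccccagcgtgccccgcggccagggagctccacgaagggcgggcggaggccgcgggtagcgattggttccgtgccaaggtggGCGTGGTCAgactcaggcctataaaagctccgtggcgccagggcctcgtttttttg
Cat: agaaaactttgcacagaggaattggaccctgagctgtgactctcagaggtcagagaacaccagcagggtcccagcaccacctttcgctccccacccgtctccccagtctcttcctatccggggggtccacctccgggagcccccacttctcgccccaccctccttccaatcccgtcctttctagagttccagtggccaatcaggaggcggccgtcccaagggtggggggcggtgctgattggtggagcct
The core was in 12.39% of 32851 promoter windows, the AP-1 site in 7.81% and the direct repeat in 0.04%. No window of the other 5 matched members held any of the 3 motifs. A match is only a run of letters and was not tested for binding.

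Ratios of 2 transcripts within a library do not depend on the scaling between libraries. They were compared by exact two-sided permutation tests, adjusted by Benjamini-Hochberg over 9 comparisons. Gpx2 to Gpx1, the epithelial over the common peroxidase, had count ratios of 1.29, 1.09 and 0.880 in ND EEC and 0.310, 0.341 and 0.300 in ND non-EEC. Under HFD it was 0.567, 0.397 and 0.455 in EEC and 0.344, 0.488 and 0.302 in non-EEC. The 3 ND EEC libraries had the highest ratios of all 12. Over both diets the ratio was higher in EEC by 1.05 on the log2 scale (permuted within diet, exact p = 0.0150, adjusted p = 0.135, smallest possible p = 0.0050), which did not pass after adjustment. From ND to HFD in EEC it differed by -1.2 without overlap (exact permutation p = 0.10, the smallest that 3 libraries against 3 can give, adjusted p = 0.180). In non-EEC it differed by 0.23 (exact permutation p = 0.400, adjusted p = 0.514).

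The ratio of Cat to Gpx1, 2 enzymes that remove hydrogen peroxide, was 1.25, 1.07 and 1.02 in EEC under ND and 0.889, 0.959 and 0.598 in EEC under HFD, where all HFD libraries lay below all ND libraries. In non-EEC it was 0.605, 0.726 and 0.901 under ND and 1.2, 3.60 and 1.62 under HFD, where all HFD libraries lay above. The differences were -0.47 and 1.38 on the log2 scale (each with exact permutation p = 0.10, the smallest possible, adjusted p = 0.180). The ratio of Gclm to Gclc, the modifier over the catalytic subunit, was 1.11, 1.56 and 1.5 in EEC under ND and 0.708, 1.38 and 1.03 in EEC under HFD, which overlapped. In non-EEC it was 0.904, 0.753 and 0.698 under ND and 0.952, 2.20 and 1.49 under HFD, without overlap. Its diet difference was -0.46 in EEC (exact permutation p = 0.200, adjusted p = 0.300) and 0.90 in non-EEC (exact permutation p = 0.10, the smallest possible, adjusted p = 0.180).

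**Figure D4:**
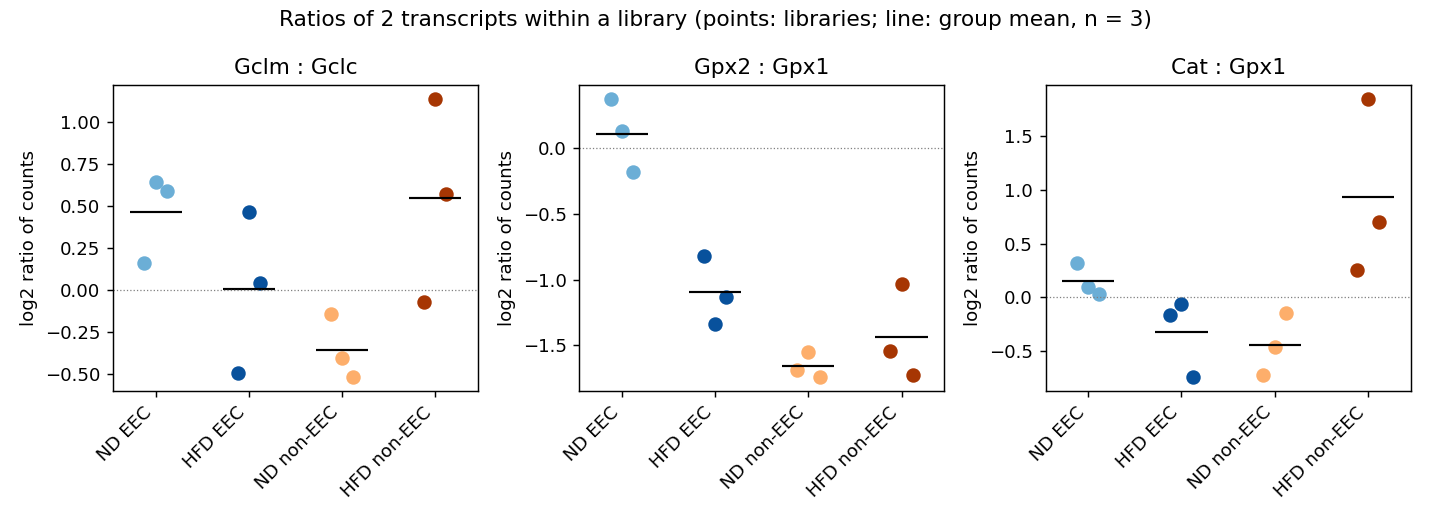
Log2 ratios of the counts of 2 members within each library (points) with group means (lines, n = 3), by group. Gpx2 to Gpx1 was highest in the 3 ND EEC libraries, and Cat to Gpx1 was lower under HFD in EEC and higher under HFD in non-EEC.

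The rest of the pathway was described with lists of related genes, counted with the members that belong to them. In non-EEC, HFD against ND called 15 of 33 peroxisome genes higher and 0 lower (median log2 fold change 1.0, beside -0.10 over all genes tested). Over all genes, 5.76% were called higher and 14.9% in either direction. Examples were Abcd3, a fatty acid transporter of the peroxisome (2.57 ± 0.46; adjusted p = 0.00430), Scp2, a sterol carrier and thiolase (2.12 ± 0.38; adjusted p = 0.00460), and Acaa1a, a thiolase (1.86 ± 0.36; adjusted p = 0.00617). Of 23 glutathione transferase genes 9 were higher and 0 lower (median 1.2), among them Mgst1 (2.48 ± 0.53), Gstk1 (2.43 ± 0.54) and Gsta3 (3.85 ± 0.995). Of 17 genes of NADPH supply 3 were higher and 0 lower (median 0.80), namely malic enzyme Me1 (4.36 ± 0.52; adjusted p = 0.00162), isocitrate dehydrogenase Idh1 (2.83 ± 0.44) and Nadk2 (1.2 ± 0.35). In the fit without ND non-EEC replicate 1, 16 of 34 peroxisome genes, 13 of 23 glutathione transferase genes and 8 of 17 genes of NADPH supply were called higher. Of all 17893 genes in that fit, 1968 were called higher, and 23.5% were called in either direction.

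Of 19 genes of glutathione synthesis, recycling and cystine supply, 4 were higher under HFD in non-EEC and 2 lower (median 1.21). Over all 17087 genes, 985 were called higher (5.76%) and 1564 lower, beside which the counts of this and the following lists stand. Besides Gclm these included Ggt1 (3.29 ± 0.89) and Ggt6 (1.83 ± 0.50), both gamma-glutamyltransferases, while Ggt5 was lower, at a mean of 0.518 CPM against 16.2 under ND. Of 32 other NRF2 targets 12 were higher and 4 lower (median 0.98), with Ugdh at 2.54 ± 0.42 and the transporter gene Abcc4 at -3.02 ± 0.51. The small MAF genes Maff (2.77 ± 0.52) and Mafk (1.61 ± 0.32), whose proteins pair with NRF2, were the 2 of 14 genes called in the list of NRF2 and its regulators. Of 24 thioredoxin, peroxiredoxin and glutaredoxin genes 3 were higher and 1 lower (median 0.56), and Prdx1 gave 1.54 ± 0.44. Among 6 glutathione peroxidase genes 1 was higher (Gpx4) and 1 lower (Gpx8, with a mean of 0.245 CPM against 17.8 under ND). Of 16 oxidant source genes 2 were higher and 3 lower, with Rac2 (-4.47 ± 0.82) and Ncf1 (-4.57 ± 0.96), genes of the leukocyte NADPH oxidase, beside the lower T cell sums under HFD. Among 4 genes of superoxide dismutases and catalase 3 were higher (Cat, Sod1 and the copper chaperone gene Ccs at 1.09 ± 0.33), and the lists of heme and iron handling and of selenoprotein synthesis had 2 higher and 1 lower each, of 16 and 18 genes. The counts without ND non-EEC replicate 1 were 8 higher and 2 lower for glutathione synthesis and 18 higher and 4 lower for other NRF2 targets. In that fit 1968 of all 17893 genes were called higher and 2235 lower.

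Between the populations over both diets, of 32 other NRF2 targets 2 were higher and 12 lower in EEC (median log2 fold change -0.83, beside -0.05 over all genes tested). Over all genes, 13.8% were called higher and 7.8% lower. Of 17 NADPH supply genes 1 was higher and 6 lower (median -0.75), with the transketolase gene Tkt at -1.35 ± 0.27 and Me1 at -1.29 ± 0.33. Of 19 glutathione synthesis genes 2 were higher, Gclc and Gclm, and 3 lower (median -1.06). The lower genes were Slc3a2, which encodes the heavy chain of the cystine transporter (-1.17 ± 0.26; adjusted p = 0.00598), glutathione synthetase Gss (-1.19 ± 0.33; adjusted p = 0.0197) and Ggct (-1.21 ± 0.35; adjusted p = 0.0261). Glutathione synthetase carries out the step after the ligase, and over both diets it differed in the direction opposite to both subunits of the ligase. Within a single diet Gss was not called. Under HFD its mean was 46.7 CPM in EEC against 130 in non-EEC. There Gclm also had a negative log2 fold change (-0.21 ± 0.31), and neither subunit was called. Of 23 glutathione transferase genes 3 were higher and 8 lower, with Gstt1 (3.39 ± 0.36; adjusted p = 3.35e-05) and Gstz1 (1.71 ± 0.25) higher. Gpx3, the secreted glutathione peroxidase, was higher in EEC by 4.91 ± 0.78 (adjusted p = 6.29e-04), with group means of 305 and 918 CPM in ND and HFD EEC against 28.3 and 11 in non-EEC. Of 18 genes of selenoprotein synthesis 2 were higher in EEC and 2 lower (median -0.03). The higher ones were Selenon (3.24 ± 0.55) and Selenom (2.20 ± 0.38), and Selenos was among the lower (-0.885 ± 0.249). Of 24 thioredoxin, peroxiredoxin and glutaredoxin genes 2 were higher and 6 lower, with Prdx6 at -1.37 ± 0.28. When ND non-EEC replicate 1 was left out, 2 of the other NRF2 targets were higher and 10 lower. Of the glutathione synthesis genes 2 were then higher and 3 lower. Of all 17893 genes in that fit, 2459 were called higher and 1362 lower (21.4% in either direction).

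Within a diet these counts were uneven. Under ND, EEC against non-EEC called 2 of 19 glutathione synthesis genes (Gclc and Gclm, both higher), 3 of 32 other NRF2 targets (all lower) and 2 of 33 peroxisome genes (both higher), beside 12.8% of all genes. Without ND non-EEC replicate 1 the counts were 3 of 19 (all higher), 3 of 32 (1 higher and 2 lower) and 5 of 34 (all higher). Of all genes, 17% were then called. Under HFD it called 1 higher and 13 lower of 33 peroxisome genes (median -1.02), 2 higher and 12 lower of 32 other NRF2 targets (median -1.27) and 2 higher and 7 lower of 23 glutathione transferase genes (median -1.54), beside 14% of all genes in either direction and 3.77% lower. Nfe2l2, which encodes NRF2, was lower in EEC under HFD (-1.43 ± 0.44; adjusted p = 0.0445). The enterocyte marker sums of HFD EEC (11600 to 27300 CPM) also lay below those of HFD non-EEC (44500 to 105000 CPM). In EEC, HFD against ND called 0 genes of any of the 12 lists by edgeR, with 1613 of all 17087 genes at an unadjusted p below 0.05, and DESeq2 called 482 of all genes and limma-voom 8. The smallest p in the lists belonged to Maff (2.73 ± 0.52; adjusted p = 0.0691) and Me1 (2.46 ± 0.48; adjusted p = 0.0691), both with higher group means under HFD.

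Likeness across the 12 libraries was described by Pearson's r of log2 CPM, without a test, since all genes share the same 4 groups and libraries. Among the 45 pairs of members 31 were positive. Gpx4 and Cat were most alike (r = 0.921), followed by Gsr and Gpx1 (0.883), Gpx1 and Nqo1 (0.830), Gpx4 and Sod1 (0.827) and Cat and Sod1 (0.826). Gclc and Gclm reached 0.770. Hmox1 was negative with each of the other 9. After subtraction of the group means, a step added after the data were seen, the order changed, with Gpx1 and Gpx2 at 0.896, Gpx2 and Nqo1 at 0.894 Gpx4 and Cat at 0.693 and Gclc and Gclm at 0.177. Among 9941 genes with a mean of at least 10 CPM, those most like Cat were Tspan3 (r = 0.978), Fahd1 (0.976) and Hadh, an enzyme of mitochondrial fat oxidation (0.971). Those most like Gclm were Tpd52 (0.970), Clcn5 (0.965) and B4galt6 (0.956), and the gene most like Gclc was Pcbd1 (0.962). For Sod1 it was Glod5 (0.947), for Gpx4 Rfng (0.955), for Gsr Amacr (0.945), for Gpx1 Fuk (0.931), for Gpx2 Cpt2 (0.908), for Nqo1 Sec61a1 (0.917) and for Hmox1 Gm14303 (0.870).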

How the data were processed

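The file holds counts, deposited by the authors as whole numbers for 39086 genes with Ensembl identifiers in 12 libraries. The submitters' processing notes name the build mm10 and the programs HTSeq 0.5.4p3, Bowtie2 2.1.0, TopHat2 2.0.10 and CASAVA 1.8.2. No source used here states the annotation release, strand setting or counting mode. The cDNA was amplified (Ovation RNA-Seq System V2), per the labels' protocols. GENCODE vM21 gave symbols, positions and transcript lengths (37607 identifiers, 96.2%), and RefSeq (GRCm38.p6) the promoters.

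After filtering with filterByExpr and TMM scaling, edgeR's quasi-likelihood model with a mean for each of 4 groups (8 residual degrees of freedom) was fitted to all 12 libraries, with Benjamini-Hochberg adjustment over 17087 genes. The fit was checked on simulated data. Over both diets it called 16 of 67 genes changed 2-fold between the populations and 63 of 67 changed 4-fold. Between the diets in non-EEC it called 4 of 67 changed 2-fold and 36 of 67 changed 4-fold. Of 16887 unchanged genes it called 7 and 2. The changed genes all had a mean of at least 10 CPM and were few beside the 16887 unchanged ones. In the data many more genes were called, so these shares do not give the power of the real fit. A member that was not called may still differ by about 2-fold. Near-identical copies were searched with BLAST+ 2.17.0 (at least 95% identity over 100 bases). The members and lists were chosen with earlier results of these data known. Named genes were all 10 members, up to 3 called genes per list and comparison with the smallest adjusted p and a group mean of at least 10 CPM, and the 3 genes most like each member. The fit was repeated with other scaling (upper quartile, RLE), without the filter or with one of 5 CPM in at least 3 libraries, with robust estimation, with limma-voom and DESeq2, on only the libraries compared, with the replicate number as a block, and without each library. Ratios were repeated with a pseudocount of 5 instead of 0.5 and with group medians. Versions were edgeR 4.0.16, DESeq2 1.42.0, limma 3.58.1, R 4.3.3 and matplotlib 3.10.9.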

Additional observations from a re-analysis of the deposited data

Results flagged for a closer look

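The diet differences of the ratio of Cat to Gpx1 were opposite in the 2 populations, with all 3 HFD libraries below all 3 ND libraries in EEC (log2 difference -0.47) and all 3 above in non-EEC (1.38). The difference between the populations was not tested. With 1 library left out, the value ran from -0.61 to -0.27 in EEC and from 0.92 to 1.72 in non-EEC. Enterocyte and T cell marker sums also differed between the diets in non-EEC, and their part in the result was not tested.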

How the results depend on the processing

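Under alternatives other than leaving out 1 library, the members called over both diets went from 5 to 4 with no filter (without Gclc). Between populations under ND they went from 2 to 1 (Gclm) with RLE factors, with no filter and with only the libraries compared, and to 3 (with Gpx1) with limma-voom, and under HFD from 2 to 4 with limma-voom. Between the diets in non-EEC they went from 4 to 9 with limma-voom (Hmox1 the exception) and to 2 (Gclm and Cat) with only the libraries compared, and for the difference of the diet effects from 0 to 2 with DESeq2 and 3 with limma-voom. Uncalled values changed sign for Gpx4 under ND (0.49, limma-voom), Gpx4 between diets in EEC (0.069 with limma-voom, 0.013 with the replicate block) and Gpx1 in the difference of diet effects (-0.045, limma-voom).

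Without 1 library, members called ran from 1 to 5 over both diets, 1 to 2 under ND, 1 to 2 under HFD, 0 to 0 for the diets in EEC, 2 to 6 for the diets in non-EEC and 0 to 4 for the difference of diet effects. Over both diets only Cat was called without replicate 3 of either HFD group. Values that changed sign in such runs ranged, over both diets, from -0.17 to 0.26 for Gpx2. Under ND the ranges were -0.11 to 0.26 for Sod1, -0.79 to 0.60 for Nqo1 and -0.47 to 0.20 for Gpx4. Under HFD they were -0.53 to 0.52 for Hmox1 and -0.44 to 0.054 for Gclm. Between diets in EEC they were -0.14 to 0.085 for Gpx4, -0.032 to 0.41 for Gclc, -0.57 to 0.53 for Hmox1 and -0.041 to 0.55 for Cat. For the difference of diet effects they were -0.43 to 0.33 for Gpx1, -0.086 to 0.49 for Gsr and -1.34 to 0.088 for Nqo1. The ratio of Gclm to Gclc between populations (0.14, exact permutation p = 0.650) ranged from -0.015 to 0.29.

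Same-numbered EEC and non-EEC libraries correlated in their deviations from the group means at r = 0.142, 0.227 and -0.013 under ND and 0.247, 0.239 and 0.234 under HFD, and 10 of the 12 libraries correlated best with their own number. All 3 pairs exceeded 0.1 under HFD but not under ND, and the labels tie no numbers to mice, so the numbers were not taken as pairs. With a replicate block within diet, 4 instead of 5 members were called over both diets (Gpx1 at -0.995, adjusted p = 0.0549), and the ratio of Gpx2 to Gpx1 (1.05) had an exact permutation p of 0.0625.

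All genes called went from 3685 to 5556 over both diets with limma-voom. Under ND they went from 2189 to 3738 (DESeq2), 5140 (limma-voom) and 1157 (only the libraries compared), and under HFD from 2393 to 3742 (DESeq2) and 4385 (limma-voom). Between diets in EEC they went from 0 to 270 without a filter, and in non-EEC from 2549 to 4082 (DESeq2) and 6929 (limma-voom). For the difference of diet effects they went from 85 to 362 (no filter), 1048 (DESeq2) and 2183 (limma-voom). Without 1 library they ran from 2787 (HFD EEC replicate 1) to 3964 (ND EEC 1) over both diets, 913 (ND non-EEC 2) to 3040 (ND non-EEC 1) under ND, 1192 (HFD EEC 1) to 2974 (ND non-EEC 1) under HFD, 0 to 217 (ND EEC 3) between diets in EEC, 1002 (HFD non-EEC 2) to 4203 (ND non-EEC 1) in non-EEC and 0 (ND EEC 2) to 1271 (ND non-EEC 1) for the difference of diet effects. The cause of these changes was not tested.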
